A study of Homo sapiens with 4 samples.

Results

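The 10 genes described here encode the proteins that shape mitotic chromosomes: SMC2 and SMC4, the ATPase core of both condensins, NCAPD2, NCAPG and NCAPH, the subunits particular to condensin I, NCAPD3, NCAPG2 and NCAPH2, the subunits particular to condensin II, topoisomerase II alpha (TOP2A) and Ki-67 (MKI67). They were taken by gene symbol, as a set proposed with earlier results of these data in view, and are 10 of the 15221 genes to which transcripts of the deposited table could be assigned. The RNA was sequenced from 4 libraries of human pancreatic cancer cells, 2 of untransduced wild type PANC-1 and 2 of PZT-2, a PANC-1 clone with knockdown (KD) of the 3 H2A.Z isoforms. All 4 were grown in the same medium with serum and taken at the same range of passages. H2A.Z is a variant of histone H2A, and the comparison asks which transcripts change when it is depleted. PZT-2 is a single clone, made with short hairpin RNAs against H2A.Z.1 (gene H2AFZ) and H2A.Z.2 (gene H2AFV). Its comparison here is with cells that carry no hairpin. In these 4 libraries the knockdown, the transduction and the choice of 1 clone therefore cannot be told apart. The study also sequenced cells with a scrambled hairpin, which are not among these 4 libraries, and reports similar changed genes in PZT-2 against them. It assayed another knockdown clone, PZT-1, by other methods.

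Condensins are ring-shaped complexes that pack chromatin into loops at mitosis. Condensin II is held in the nucleus through interphase and starts condensation in prophase, whereas condensin I reaches the chromosomes after the nuclear envelope breaks down. Topoisomerase II alpha cuts and rejoins DNA so that sister chromatids can be untangled, and Ki-67 coats mitotic chromosomes and keeps them apart. Many genes needed in G2 and mitosis are held down in resting cells by the DREAM complex through a short promoter element, the cell cycle genes homology region (CHR), and are raised later in the cycle by B-MYB and FOXM1.

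The CHR letters TTTGAA or TTTAAA were searched on both strands from 250 bases before to 50 bases after the starts given by RefSeq (GRCh38.p14). They were found in the promoters of 9 of the 9 genes with an entry, and in 9 of the 12 promoters that these genes have. Of all 27305 genes with a promoter entry, 27.9% held the same letters, and of all 35116 promoters 24.0%. NCAPH2 had no entry. The stretch around 1 CHR match of each of these 9 genes is shown on the strand of the gene, with the CHR letters in capitals:
TOP2A, chr17:40418031-40418058, minus strand: tgattggtttaTTCAAAcaaaccccggc
MKI67, chr10:128126436-128126463, minus strand: cttcgttttcgTTTGAAttgggcgggcg
SMC2, chr9:104094295-104094322, plus strand: tcgcgccgaaaTTCAAAggaataaatag
SMC4, chr3:160399564-160399591, plus strand: ccgcactttttTTCAAAttagtggatcc
NCAPD2, chr12:6493946-6493973, plus strand: agccgttgagaTTTGAActcggtatttg
NCAPG, chr4:17810933-17810960, plus strand: cgcgggaattaTTTGAAcgttcgagcgg
NCAPH, chr2:96335787-96335814, plus strand: gacgcgcgcgaTTTAAAaccagctcagg
NCAPD3, chr11:134223954-134223981, minus strand: cgggagcgagcTTTGAAagttgagcacg
NCAPG2, chr7:158704755-158704782, minus strand: gccggcgggtgcgTTTGAAtctggtccg

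Positions were counted from the RefSeq start used, with the first base there as 1 and the base before it as -1. The match shown began at -151 in TOP2A, -29 in MKI67, -3 in SMC2, -75 in SMC4, -145 in NCAPD2 and -35 in NCAPG. It began at 33 in NCAPH, -3 in NCAPD3 and 36 in NCAPG2. The gene spans of GENCODE 29, given below, begin farther upstream in SMC2, SMC4, NCAPD2, NCAPG and NCAPD3. In these genes the stretch shown lies inside that span. TOP2A had another match at -194 and MKI67 another at -47. TTTGAA was the form in 8 genes and TTTAAA the form in NCAPH alone. The CCAAT box, which NF-Y binds and which often lies upstream of a CHR, was found on either strand in 5 of the 9 genes (MKI67, NCAPD2, NCAPD3, NCAPH and TOP2A) against 39.7% of all genes. In TOP2A and NCAPD2 it occurred 4 times each. The match at -24 in MKI67 shared 1 base with the CHR match at -29. The E2F letters TTTCCCGC or TTTGGCGC were found in NCAPD3 alone, against 2.75% of all genes. A match of letters is a description of the sequence and was not tested for binding.

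The targeted genes were lower in PZT-2, as their labels say. H2AFZ gave 6389 and 6034 normalized counts in PANC-1 and 2212 and 2259 in PZT-2, and its log2 fold change was -1.47 (SE 0.0565, adjusted p = 6.15e-05, edgeR). H2AFV gave 3344 and 3452 in PANC-1 and 2590 and 2717 in PZT-2, and its log2 fold change was -0.36 (SE 0.0568, adjusted p = 0.00563, edgeR). Libraries held between 12860941 and 15717265 counts, and all 6 epithelial markers were listed, with a summed level of 7248 and 7403 TPM (a level per length of transcript, scaled to the same total in each library) in PANC-1 and 4058 and 3969 TPM in PZT-2. The keratins KRT8, KRT18 and KRT19 made up nearly all of it, and KRT8 alone went from 3127 and 3153 TPM in PANC-1 to 1472 and 1424 TPM in PZT-2. KRT7 and EPCAM were low in all 4 libraries, between 6.75 and 11 TPM, and CDH1, which encodes E-cadherin, was at 3.03 and 4 TPM in PANC-1 and at 0 and 0.527 TPM in PZT-2. The part of this difference in the values of the 10 genes was not tested. Of 8 markers of other cell types, 6 (PTPRC, CD3E, VWF, ALB, PRSS1 and INS) had no transcript in the table, PECAM1 was at most 0.236 TPM, and CD68, which many cancer lines transcribe, was at 117 to 130 TPM.

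All 10 genes passed the filter on low counts. Of them, 5 were lower in PZT-2 (TOP2A, SMC2, NCAPG, NCAPD2 and NCAPH2), where 13.7% of the 15101 genes tested were lower. NCAPD3 alone was higher, where 14.7% of all genes were higher. The other 4 of the 10 genes (SMC4, NCAPH, NCAPG2 and MKI67) did not pass the threshold of an adjusted p of 0.05. NCAPD2 and TOP2A were the only ones to pass when PZT-2 replicate 2 was left out, or when limma-trend was run on log2(TPM + 1). The share of all genes lower was then 6.24% and 9.58%. Leaving out PANC-1 replicate 2 gave 3 genes higher (16.1% of all genes), and leaving out PZT-2 replicate 1 gave 0 (8.64% of all genes). The libraries of the cell lines did not overlap in 9 genes. PZT-2 was the lower in 6 of them, against 33.0% of all genes, and the higher in 3 (SMC4, NCAPD3 and NCAPG2), against 33.3%. The median log2 fold change was -0.26 over the 10 genes and 0.00 over all genes tested. Values below are normalized counts, which are counts scaled to a common library size, and they are given for PANC-1 replicates 1 and 2 and then for PZT-2 replicates 1 and 2. RNA of whole cultures was measured, so a change in the mix of cell cycle phases and a change in RNA per cell cannot be told apart. With BrdU and DNA staining of serum-starved and released cultures, the study placed most cells of its knockdown clones in G2/M. How far this enters the values of the 10 genes was not tested.

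**Figure D1:**
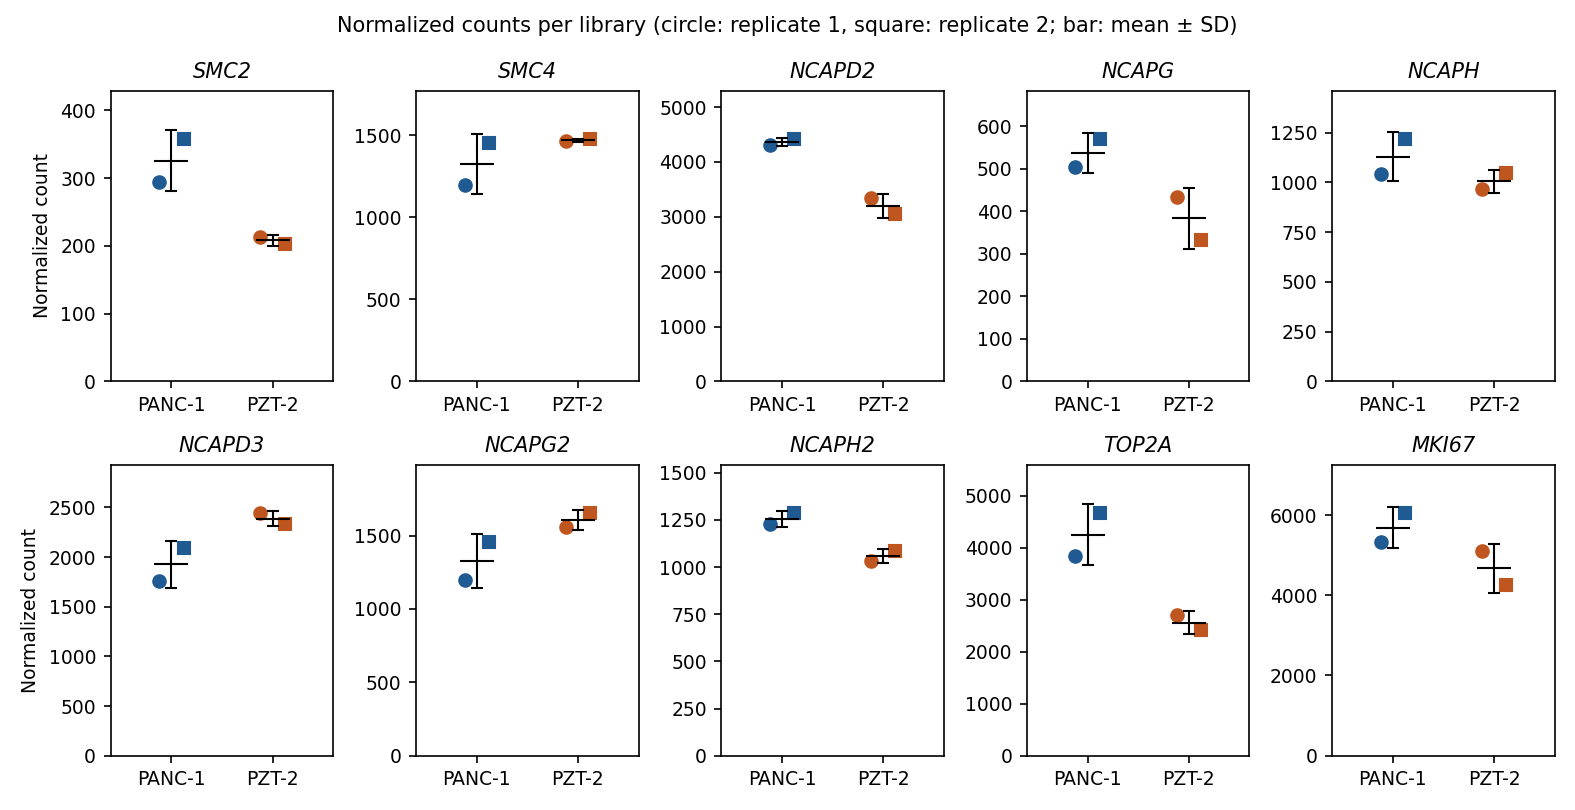
Normalized counts of each gene (y axis, from 0) in the 2 PANC-1 libraries (blue) and the 2 PZT-2 libraries (orange), with circles for replicate 1, squares for replicate 2 and bars for the mean ± SD (n = 2). TOP2A, SMC2, NCAPD2, NCAPG and NCAPH2 sit lower in PZT-2 with no overlap, NCAPD3 sits higher, and NCAPH overlaps between the cell lines.

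The condensin core was unequal in its change. SMC2, at chr9:104094260-104141417 (coordinates of genes are from GENCODE 29 on GRCh38), gave 294 and 358 normalized counts in PANC-1 and 213 and 203 in PZT-2. The cell lines did not overlap, and the fitted level in PZT-2 was 63.7% of that in PANC-1. The log2 fold change was -0.65 (SE 0.128, adjusted p = 0.0118, edgeR quasi-likelihood test with Benjamini-Hochberg adjustment, as for all adjusted p-values given unless another tool is named). Without PZT-2 replicate 2 the adjusted p of SMC2 was 0.0743. SMC4, its partner in the ring, at chr3:160399274-160434962, gave 1194 and 1455 in PANC-1 and 1463 and 1476 in PZT-2. Here PANC-1 replicate 1 stood apart from the other 3 libraries, which were nearly level. The log2 fold change of SMC4 was 0.15 (SE 0.0974, adjusted p = 0.313), and without PANC-1 replicate 2 the change was 0.29 and passed the test (adjusted p = 0.00809).

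The subunits of condensin I were lower or not separated. NCAPD2, one of the HEAT-repeat subunits that bind DNA, at chr12:6493356-6531955, gave 4313 and 4418 in PANC-1 and 3345 and 3047 in PZT-2. The gap between the cell lines was far larger than the spread within either, and the log2 fold change was -0.45 (SE 0.0633, adjusted p = 0.00368). NCAPG, the other HEAT-repeat subunit, at chr4:17810902-17844862, gave 504 and 570 in PANC-1 and 434 and 333 in PZT-2, and the cell lines did not overlap. Its log2 fold change was -0.49 (SE 0.139, adjusted p = 0.0414), and the adjusted p rose to 0.0644 when PANC-1 replicate 2 was left out and to 0.164 when PZT-2 replicate 2 was. NCAPH, the kleisin that closes the ring of condensin I, at chr2:96335787-96373845, gave 1042 and 1218 in PANC-1 and 965 and 1046 in PZT-2. PANC-1 replicate 1 and PZT-2 replicate 2 were nearly level, and the log2 fold change of -0.17 (SE 0.0927, adjusted p = 0.223) did not pass the test. Leaving out PANC-1 replicate 1 gave -0.28 (adjusted p = 0.0231).

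The subunits of condensin II moved in different directions. NCAPD3, the HEAT-repeat subunit that corresponds to NCAPD2, at chr11:134150119-134225454, gave 1762 and 2093 in PANC-1 and 2442 and 2333 in PZT-2. Both PZT-2 libraries were higher, with a log2 fold change of 0.31 (SE 0.0892, adjusted p = 0.0448). NCAPD3 did not pass when PZT-2 replicate 1 (adjusted p = 0.183) or PZT-2 replicate 2 (adjusted p = 0.127) was left out. NCAPG2, which corresponds to NCAPG, at chr7:158631311-158704829, gave 1200 and 1459 in PANC-1 and 1557 and 1652 in PZT-2, with no overlap. Its log2 fold change of 0.27 (SE 0.0992, adjusted p = 0.0901) did not pass the test, whereas leaving out PANC-1 replicate 2 gave 0.41 (adjusted p = 0.00141). NCAPH2, the kleisin of condensin II, at chr22:50508216-50523472, gave 1227 and 1285 in PANC-1 and 1033 and 1085 in PZT-2. It was lower in PZT-2, with a log2 fold change of -0.25 (SE 0.0650, adjusted p = 0.0324). The same held for NCAPH2 as for NCAPD3, with an adjusted p of 0.189 when PZT-2 replicate 1 was left out and 0.116 when replicate 2 was.

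TOP2A had the largest change of the 10 genes. At chr17:40388516-40417950, it gave 3837 and 4659 normalized counts in PANC-1 and 2712 and 2407 in PZT-2, so that the PZT-2 mean was 60.2% of that of PANC-1. The nearest libraries of the 2 cell lines lay farther apart than the replicates of either. The log2 fold change of TOP2A was -0.73 (SE 0.105, adjusted p = 0.00397), and omitting a library moved it no further than -0.87 or -0.59. MKI67, at chr10:128096659-128126385, gave 5321 and 6046 in PANC-1 and 5111 and 4245 in PZT-2. PZT-2 replicate 1 lay only just below PANC-1 replicate 1. The log2 fold change of MKI67 was -0.28 (SE 0.102, adjusted p = 0.0861). Leaving out PANC-1 replicate 1 gave -0.37 (adjusted p = 0.00956), and leaving out PZT-2 replicate 1 gave -0.42 (adjusted p = 0.0422).

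**Figure D2:**
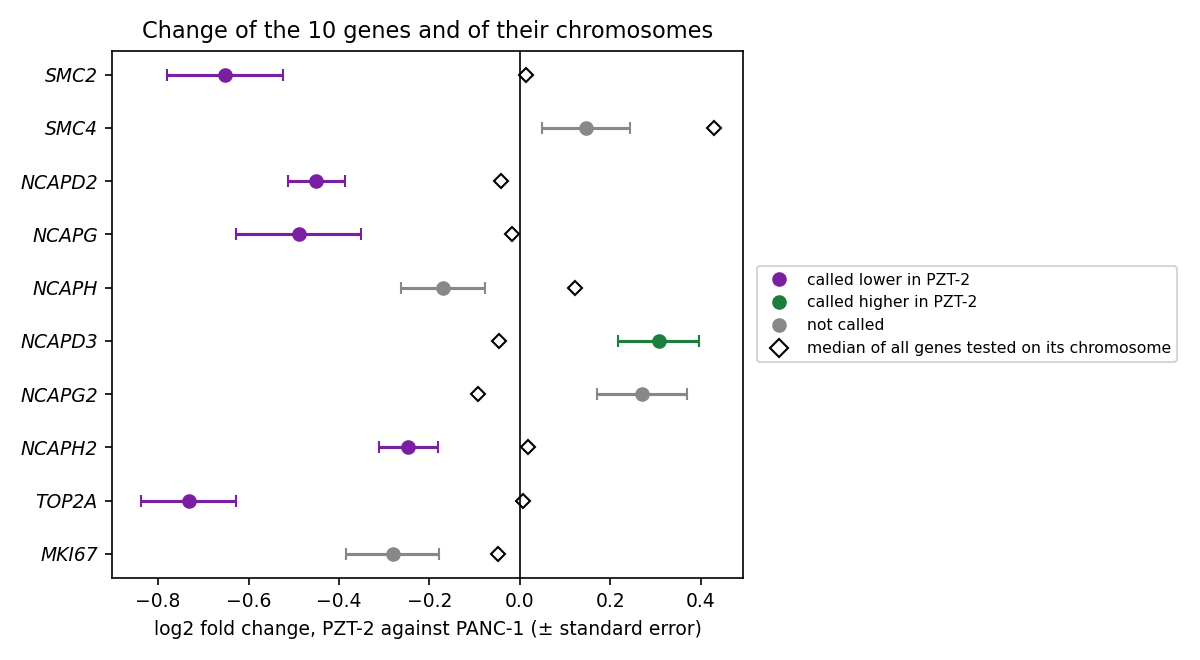
Log2 fold change of each gene, PZT-2 against PANC-1 (x axis, points with bars of ± 1 standard error), coloured by whether it passed the threshold, and the median of all genes tested on its chromosome (open diamonds). TOP2A (-0.73) and SMC2 (-0.65) lie farthest below 0, NCAPD3 (0.31) lies farthest above, and SMC4 (0.15) lies left of the median of chromosome 3 (0.43).

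The PANC-1 libraries were not alike in these genes. All 10 were higher in PANC-1 replicate 2 than in replicate 1, with a median log2 ratio of 0.24, whereas 50.02% of all genes tested were higher there. Between the PZT-2 libraries 4 of the 10 were higher in replicate 2. As a share of all counts the 10 genes took 0.143% and 0.166% in PANC-1 and 0.137% and 0.127% in PZT-2. The plot of changes with each library left out shows what this spread does to each gene. NCAPD2 and TOP2A passed the threshold in all 4 omissions, and no gene changed sign.

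**Figure D3:**
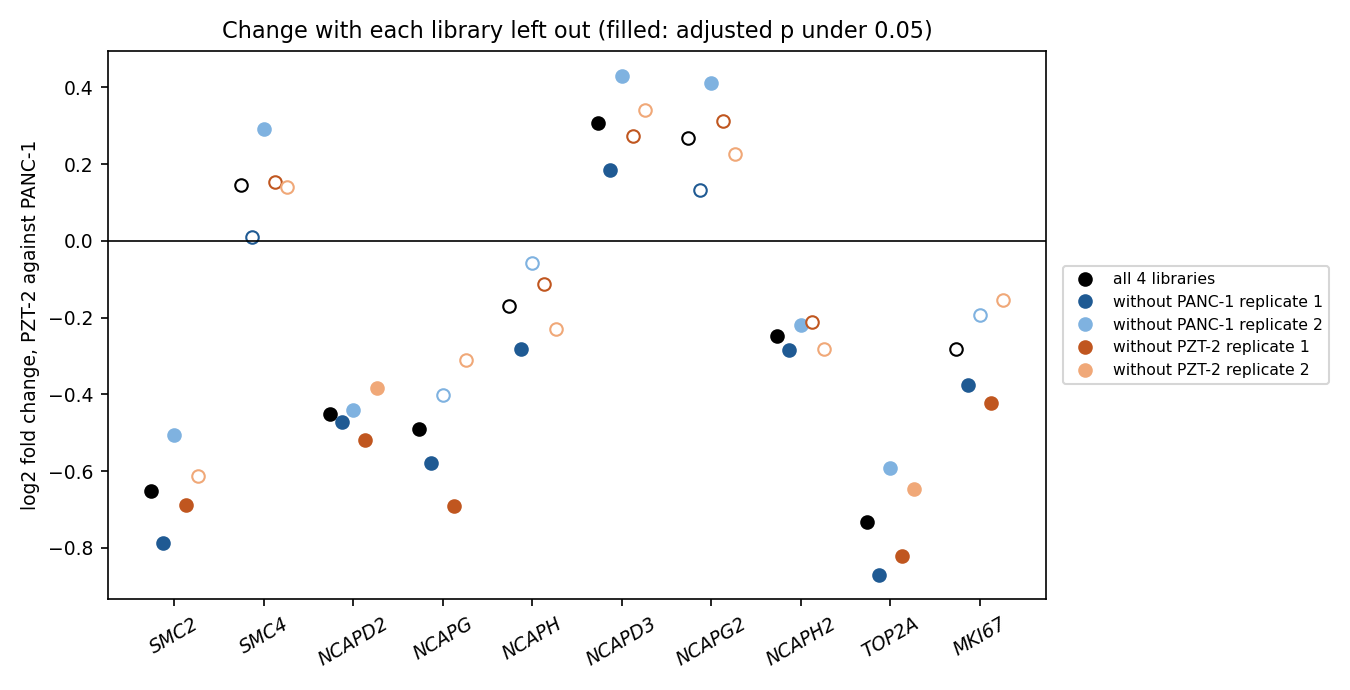
Log2 fold change of each gene, PZT-2 against PANC-1 (y axis), with all 4 libraries (black) and with each library left out (colours); filled points have an adjusted p under 0.05 and open points do not. NCAPD2 and TOP2A have filled points throughout, and without PANC-1 replicate 2 the points of SMC4, NCAPD3 and NCAPG2 lie highest.

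The median change of the genes on a chromosome was away from 0 for some chromosomes in PZT-2. Where along a chromosome the changed genes lie was not examined. Over the 833 genes tested on chromosome 3, where SMC4 lies, the median log2 fold change was 0.43, and 48.5% of them were higher. SMC4, at 0.15, lay below that median. On chromosome 2, where NCAPH lies, the median was 0.12, and NCAPH lay below it at -0.17. On the chromosomes of the other 8 genes the median was between -0.09 (chromosome 7, with NCAPG2) and 0.02 (chromosome 22, with NCAPH2). How far the median of a chromosome sets the value of a gene was not tested.

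Levels of different genes can be set side by side in TPM, which is per length. In PANC-1, NCAPD2 was the highest of the 10 at 114 and 120 TPM. TOP2A followed at 84.4 and 105 TPM, then MKI67 at 54.0 and 63.4 TPM and NCAPH2 at 53.8 and 55.9 TPM, which overlapped. NCAPD3 (39.4 and 48.2 TPM) and NCAPG2 (37.1 and 46.7 TPM) overlapped as well, and SMC4 (28.3 and 35.4 TPM), NCAPH (21.8 and 26.2 TPM), NCAPG (13.5 and 15.7 TPM) and SMC2 (6.19 and 7.75 TPM) came below them without overlap. Within condensin I the 3 subunits were thus far from equal in RNA, and SMC2 had the lowest level of all 10.

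In PZT-2 the order changed in its middle. NCAPD2 stayed highest at 93.5 and 84.7 TPM, but TOP2A (63.0 and 55.6 TPM) now overlapped with NCAPD3 (57.7 and 54.8 TPM). NCAPG2 was at 51.1 and 54.0 TPM, MKI67 at 54.6 and 45.3 TPM, and NCAPH2 at 48.4 TPM in both libraries, so that MKI67 overlapped with each of its neighbours. MKI67 overlapped in TPM between the cell lines, although it did not in normalized counts. SMC4 (36.5 and 36.7 TPM), NCAPH (21.3 and 23.0 TPM), NCAPG (12.2 and 9.34 TPM) and SMC2 (4.74 and 4.49 TPM) kept their order below the rest.

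Ratios within a library compare the paired subunits without any scaling between libraries. The summed TPM of the 3 subunits particular to condensin I was 149 and 162 in PANC-1 and 127 and 117 in PZT-2, and that of condensin II was 130 and 151 in PANC-1 and 157 and 157 in PZT-2. NCAPD2 made up most of the condensin I sum, at 114 and 120 TPM in PANC-1 and 93.5 and 84.7 TPM in PZT-2. NCAPG and NCAPH were below NCAPG2 and NCAPH2 in every library. The ratio of the sums was 1.15 and 1.08 in PANC-1 and 0.809 and 0.744 in PZT-2. The condensin I sum thus exceeded the condensin II sum in both PANC-1 libraries and was under it in both PZT-2 libraries. The difference in log2 ratio was -0.52. An exact two-sided permutation test of 2 against 2 libraries gave p = 0.333, the smallest this design can give, so no ratio can pass a threshold of 0.05 here.

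The ratio of NCAPD2 to NCAPD3 was 2.90 and 2.50 in PANC-1 and 1.62 and 1.55 in PZT-2. That of NCAPG to NCAPG2 was 0.363 and 0.336 in PANC-1 and 0.239 and 0.173 in PZT-2. The kleisins did not show this: NCAPH to NCAPH2 was 0.405 and 0.469 in PANC-1 and 0.440 and 0.474 in PZT-2, with overlap (exact permutation p = 0.667). SMC2 to SMC4 was 0.219 in both PANC-1 libraries and 0.130 and 0.122 in PZT-2. The ratio of TOP2A to TOP2B, the topoisomerase II that resting cells also use, was 6.21 and 6.84 in PANC-1 and 2.93 and 2.81 in PZT-2. TOP2B lies on chromosome 3, and its log2 fold change of 0.45 was close to the median there. TOP2A to MKI67 was 1.56 and 1.66 in PANC-1 and 1.15 and 1.23 in PZT-2.

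**Figure D4:**
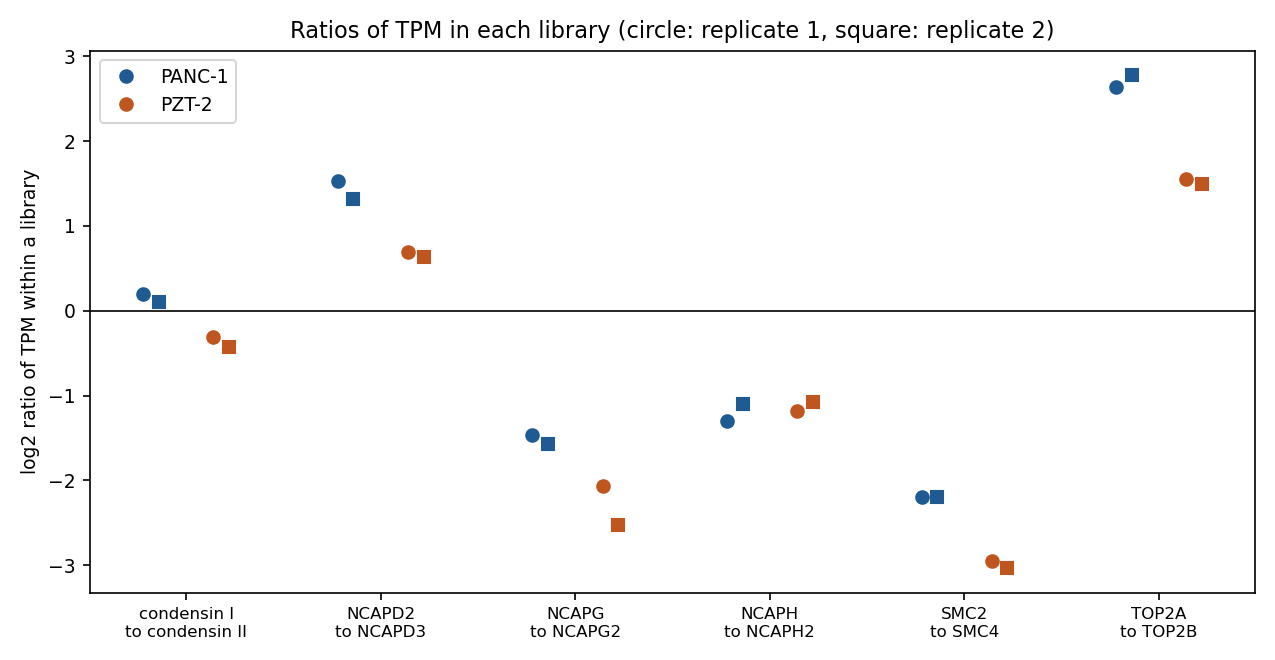
Log2 ratio of TPM within each library (y axis) for the condensin I against the condensin II subunits (summed), the 3 pairs of corresponding subunits, SMC2 against SMC4 and TOP2A against TOP2B; blue is PANC-1, orange PZT-2, circles replicate 1 and squares replicate 2. All ratios lie lower in both PZT-2 libraries except NCAPH to NCAPH2, where the libraries overlap.

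TOP2A, NCAPD2, NCAPD3 and NCAPG had 1 RefSeq transcript each in the table, and the other 6 genes had several, 22 transcripts in all. Of 30403 transcripts tested, 0.148% passed the threshold, and of these 22 none did (edgeR). The lowest unadjusted p-values of the 22 were those of NM_014865 of NCAPD2 (0.00287) and NM_001067 of TOP2A (0.00619, both edgeR). The Wald test of DESeq2 called 2 of the 22, where it called 14.5% of all transcripts. The values of separate transcripts rest on how shared reads were divided among them.

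The transcripts of MKI67 code for the long and the short form of Ki-67. NM_002417 codes for 3256 residues and NM_001145966 for 2896, and the long form has the exon at chr10:128114928-128116007, 1080 bases of coding sequence, which the short form skips (matching transcripts of GENCODE 29). The short form took 17.8% and 23.7% of the counts of MKI67 in PANC-1 and 16% and 20.3% in PZT-2. The share overlapped between the cell lines. NCAPG2 was mostly NM_017760 (83.1% and 92.1% in PANC-1, 88.0% and 92.3% in PZT-2), and NCAPH2 mostly NM_152299 (76.9% and 86.4% in PANC-1, 83.2% and 82.0% in PZT-2). SMC4 was mostly NM_005496, at 64.9% and 65.0% in PANC-1 and 60.2% and 68.1% in PZT-2. NM_015341 of NCAPH held 57.6% and 58.5% in PANC-1 and 56.7% and 48.8% in PZT-2.

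SMC2 was different. Its transcript NM_001042551 took 90.4% of the counts in PANC-1 replicate 1, 35.7% in PANC-1 replicate 2, 0.00150% in PZT-2 replicate 1 and 41.4% in PZT-2 replicate 2, while NM_006444 took 0.00506%, 40.0%, 68.4% and 44.2%. Replicates of 1 cell line thus differed as much as the cell lines, and the sum over the transcripts, on which the change of SMC2 rests, varied less. NM_006444 and the third transcript of SMC2, NM_001042550, code for proteins of the same length, 1197 residues.

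**Figure D5:**
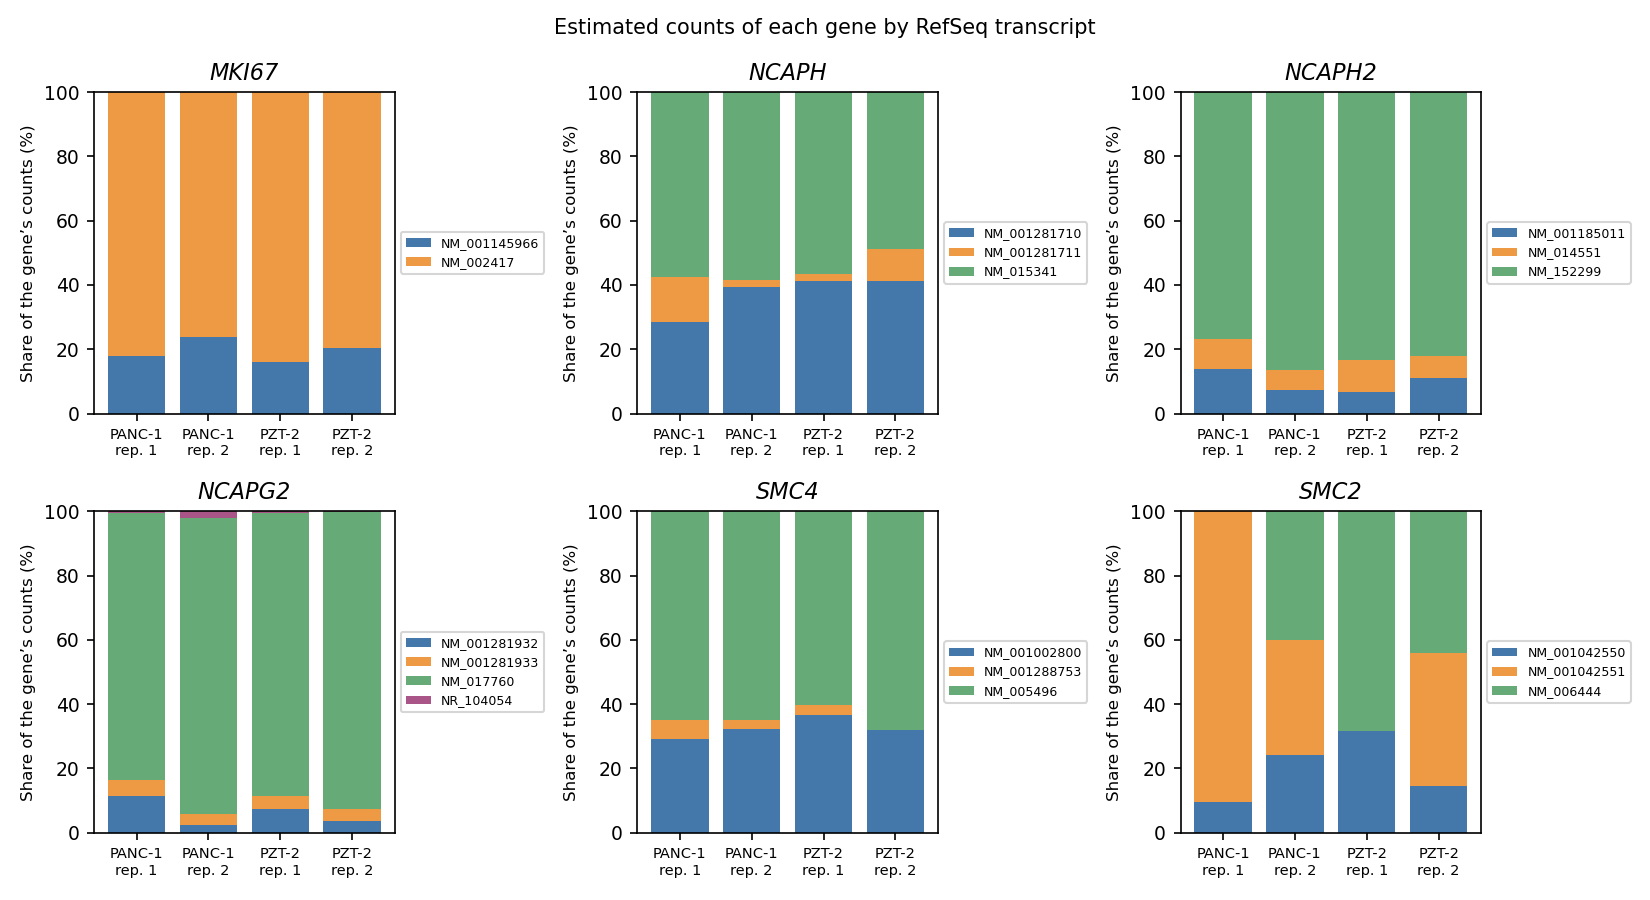
Share of the counts of a gene (y axis, %) in each RefSeq transcript (colours), for the 6 genes with several transcripts and in each of the 4 libraries (x axis). The split of MKI67 stays within 16% to 23.7% for the short form NM_001145966, whereas the split of SMC2 jumps between replicates of the same cell line.

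Exons of 4 of the genes overlap those of a gene on the opposite strand in GENCODE 29, and the sources used here do not say whether strand was used in counting. The overlaps are 1561 bases of SMC4 with TRIM59 and 607 with IFT80, 486 bases of NCAPD2 with MRPL51, 1631 bases of NCAPG with LCORL, and 465 bases of NCAPD3 with JAM3, 249 with VPS26B and 96 with AP001775.2. JAM3, an adhesion molecule, rose by 1.12 on the log2 scale (SE 0.0617, adjusted p = 0.000203). The change of LCORL was -0.34 (adjusted p = 0.158), that of MRPL51 -0.12 (adjusted p = 0.243), that of TRIM59 -0.39 (adjusted p = 0.0403), that of IFT80 0.10 (adjusted p = 0.771) and that of VPS26B 0.02 (adjusted p = 0.797). The part of these genes in the values of NCAPD3, NCAPG, NCAPD2 and SMC4 was not tested.

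The other SMC complexes and the partners of these genes were read from 6 lists with 77 genes in all, each of which was tested. Of the 77, 16 were lower and 6 higher in PZT-2, beside 13.7% lower and 14.7% higher of all genes tested, and their median log2 fold change was -0.08. Those lower were 9 when PZT-2 replicate 1 was left out, where the share of all genes lower fell as well, to 7.89%. When PZT-2 replicate 2 was left out, 6 were lower and 2 higher, with 6.24% and 7.28% of all genes. Cohesin, which holds sister chromatids together, and its regulators had 7 of 18 genes lower and 0 higher, with a median of -0.17. Of the 18, 16 were fitted below 0, where the median over all genes tested was 0.00. SMC3, which with SMC1A forms the ring of cohesin, fell by 0.59 on the log2 scale (adjusted p = 0.0142). STAG2, a subunit that binds DNA, fell by 0.65 (adjusted p = 0.0115) and NIPBL, the loader, by 0.63 (adjusted p = 0.0284). STAG2 lies on chromosome X, whose median was -0.29, as do SMC1A and HDAC8 of the same list. Of the SMC5/6 complex and its partners, 2 of 8 were lower and 0 higher, with a median of -0.14: NSMCE1, a ubiquitin ligase subunit, at -0.39 (adjusted p = 0.00977) and SLF2, which brings the complex to damaged DNA, at -0.58 (adjusted p = 0.00955).

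Among 9 topoisomerases and their repair enzymes, TOP2A not counted, 0 were lower and 2 higher, with a median of -0.02: TOP2B, and TDP2, which removes topoisomerase II trapped on DNA, at 0.51 (adjusted p = 0.0103). Of 10 genes of the chromosome periphery, where Ki-67 acts, 1 was lower and 2 were higher, with a median of 0.04. NIFK, which binds the forkhead-associated domain of Ki-67, was higher at 0.52 (adjusted p = 0.0197), as was nucleolin (NCL) at 0.31 (adjusted p = 0.0306), whereas PES1 was lower at -0.25 (adjusted p = 0.0225). Of 16 regulators of condensation and segregation, 4 were lower and 0 higher, with a median of -0.08. KIF4A, a chromosome motor that works with condensin, was lower at -0.55 (adjusted p = 0.00132) and lies on chromosome X as well. CDCA8, a subunit of the chromosomal passenger complex, was lower at -0.40 (adjusted p = 0.00388) and the spindle checkpoint kinase TTK at -0.38 (adjusted p = 0.0317).

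Of 16 genes of the machinery that controls mitotic transcription, 2 were lower and 2 higher, with a median of -0.08. CDKN1A, which encodes the CDK inhibitor p21, was higher at 0.74 (adjusted p = 0.0153), FOXM1, an activator named above, lower at -0.47 (adjusted p = 0.00528), and TFDP2, a partner of E2F proteins, higher at 0.55 (adjusted p = 0.00190). TFDP2 lies on chromosome 3, with the median of 0.43 given above. MYBL2, which encodes the other activator, B-MYB, and was picked for mention after its values were seen, had a log2 fold change of 0.08 (SE 0.0507, adjusted p = 0.319). Of the 16 related genes named by their size of change, STAG2, KIF4A, CDCA8, FOXM1 and TFDP2 passed the threshold whichever library was left out. When PZT-2 replicate 2 was left out 7 of the 16 passed, when PZT-2 replicate 1 was left out 11 did, and when PANC-1 replicate 2 was left out 15 did, with TTK the exception (adjusted p = 0.0543).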

How the data were processed

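Paired reads of poly(A)-selected RNA (TruSeq Stranded mRNA) were, per the study's methods, trimmed by the authors with Trim Galore 0.4.1 and quantified with kallisto 0.43.0 against RefSeq transcripts, with sleuth 0.29.0 for the deposited comparison, whose fold and p columns were not used. The submitters' processing notes name hg19 as the build, and no coordinates were taken from the files. The authors deposited the estimated counts that kallisto gave for each transcript and library (an expected count need not be whole), with other columns such as gene symbols, lengths and effective lengths.

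The deposited counts had been multiplied by a factor per library (1.16, 0.935, 1.03 and 1.01 for PANC-1 replicates 1 and 2 and PZT-2 replicates 1 and 2), which was found from low values of genes with 1 transcript and undone: between 41.1% and 42.9% of these were then whole within 0.01. Of 31077 transcripts, 103 with 0.0466% of counts had no gene. Counts were summed per gene, rounded, filtered (at least 5 counts in at least 2 libraries) and tested in R 4.3.3 with edgeR 4.0.16 (TMM, quasi-likelihood test, Benjamini-Hochberg over all 15101 genes, threshold 0.05). TPM was computed here from counts and effective lengths. DESeq2 1.42.0 and limma 3.58.1 served as alternatives. The tests were tried on simulated counts first. The members and gene lists were chosen with earlier results of these data known. Named were all 10 members, the targeted genes and, of each related list, the 3 genes with the largest change among those that passed. Of the 20 transcripts of members with a mean of at least 1 TPM, only a part is named in the text. A gene of the related lists is not reported here and was left out of their counts. Genes that overlap a member were named after their values were seen. The study calls the 2 libraries of a cell line biological replicates, but the labels do not say whether they came from separate cultures. The p-values measure the spread between these libraries, which may be technical.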

Additional observations from a re-analysis of the deposited data

How the results depend on the processing

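Over 15 alternatives for each of the 10 genes, 120 of 150 values kept their direction and their side of the threshold, 24 no longer passed, 6 newly passed and 0 changed sign. NCAPD2 and TOP2A passed under all 15. Of the 10 genes, 5 were lower and 1 higher in PZT-2 above. Under limma-trend on log2(TPM + 1), limma-trend on log2(TPM + 0.1) and the most abundant transcript alone, 2 were lower and 0 higher. Of all genes, 9.58%, 9.28% and 6.66% were then lower and 15.7%, 15.3% and 7.41% higher, in that order. With the most abundant transcript alone, SMC2 had a log2 fold change of -2.22 with an adjusted p of 0.342 (edgeR). The number higher was also 0 with the deposited scaling kept (NCAPD3 adjusted p = 0.0533, NCAPG 0.0517), where 14.2% of all genes were higher. With each library left out, between 2 and 7 genes were lower and between 0 and 3 higher. The shares of all genes lower and higher moved as well, and their ranges are given below with the related genes. DESeq2 called MKI67 (adjusted p = 0.0268) and not NCAPH2 (0.0682). The replicate numbers do not pair the libraries (correlation of deviations of same-numbered libraries -0.03). With the number as a block, 0 of the 10 were higher (NCAPD3 adjusted p = 0.0568, NCAPG 0.0594), where 13.1% of all genes were higher. Of the 77 related genes, the 16 lower were 6 under both limma settings, where 9.58% and 9.28% of all genes were lower. Under the most abundant transcript alone they were 5, and the 6 higher were 3. The shares of all genes fell there as well, to 6.66% lower and 7.41% higher. With each library left out, 6 to 19 of the 77 were lower and 2 to 8 higher. Of all genes, 6.24% to 15.0% were then lower and 7.28% to 16.4% higher. DESeq2 called 2 of the 22 transcripts (14.5% of all), and a minimum of 10 counts in all libraries left 18, of which 2 were called (5.86% of all). The difference between PZT-2 and PANC-1 in the log2 ratio of condensin I to condensin II lay between -0.60 and -0.46 under all its alternatives. With 2 libraries a group, changes of SMC2, which had 205 to 396 counts, and NCAPG, with 337 to 631, are the least precise of the 10.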
